A study of Homo sapiens with 6 samples.

Results

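The matrix metalloproteinases (MMPs), the ADAM and ADAMTS proteases and their TIMP inhibitors were read out in RNA-seq of cells labelled as the human melanoma line G361. The set was taken by gene name, as the protein-coding genes named MMP, ADAM or ADAMTS followed by a number, or TIMP1 to TIMP4. It held 46 of the 21494 genes in the table, of which 15325 are protein-coding: 17 MMPs, 13 ADAMs, 12 ADAMTS genes and 4 TIMPs. The study compared 3 shControl with 3 shDCAF1 samples, to ask which genes change when DCAF1, the gene of the kinase VprBP, is depleted. The labels give the genotype as WT for shControl and DCAF1 Knockdown for shDCAF1, and no age, time or dose. Per the study's methods, the cells were infected with a lentiviral pLKO.1 vector and selected in puromycin, and a single shRNA against the coding region of DCAF1 was used, so that an effect of DCAF1 loss and an off-target effect of that shRNA cannot be told apart. Nothing in the sources says that the 3 samples of a group came from separate cultures. The p-values therefore measure the spread between these samples, which may be technical.

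Metalloproteinases cut proteins with the help of a zinc ion in their active site. MMPs degrade collagens, laminins and other matrix proteins, ADAMs release growth factors, cytokines and receptors from the cell surface, and ADAMTS proteases trim proteoglycans and procollagens. Most are made as inactive precursors, and TIMPs block the active enzymes by binding to the catalytic site. In melanoma and other cancers these enzymes are known for matrix breakdown during invasion and for shedding of growth factor receptors and their ligands.

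Total estimated counts ran from 18195949 to 26883948 per sample, and the 46 genes took 0.370% to 0.403% of the counts in shControl and 0.0823% to 0.0966% in shDCAF1. DCAF1 itself had 688, 893 and 884 counts in shControl and 681, 488 and 628 counts in shDCAF1. Its normalized counts were 869 ± 90.6 (SD, n = 3) against 583 ± 154, a log2 fold change of -0.58 (SE 0.174) that stayed under 2-fold (edgeR adjusted p = 0.0125). With library size as the only scaling the value was -0.37 (edgeR adjusted p = 0.0851), and with replicates 2 and 3 summed -0.46 (edgeR adjusted p = 0.0839). With TMM factors it was -0.68 (edgeR adjusted p = 0.00569) and with DESeq2 -0.70 (DESeq2 adjusted p = 0.000292), also under 2-fold. The labels name G361 and melanoma but give LD611 as the source, and the melanocyte markers that define this lineage were low: MLANA and TYRP1 had at most 5 counts in any sample, MITF had 154 to 312, and TYR, DCT, SOX10 and S100B were not analysed here. Summed over the list, 4 melanocyte markers had 199 to 236 normalized counts in shControl and 244 to 308 in shDCAF1. Of these, 0 were called, that is, passed a fold change of 2 with an edgeR adjusted p under 0.05. Among 10 urothelial markers, 2 were called up and 6 down, where 24.5% of all genes tested were called up and 22.0% down. The sums of these markers were 179487 to 200887 normalized counts in shControl and 25119 to 28553 in shDCAF1. UPK1B had 0 counts in every shDCAF1 sample. The basal markers KRT14 and TP63 went from 79034 ± 5745.5 and 8929 ± 1015 normalized counts in shControl to 4.67 ± 5.66 and 9.44 ± 0.979 in shDCAF1 (SD, n = 3), and the luminal marker GATA3 from 3.07 ± 4.4 to 1529 ± 205. Other genes of this list went in both directions: the uroplakin UPK2 was called down (log2 fold change -2.25) and PPARG up (1.39). KRT7 was not called (-0.70). The sums of 5 endothelial markers (698 to 723 against 32.4 to 40.6), 3 leukocyte markers (1298 to 1889 against 135 to 481) and 5 fibroblast markers (768 to 809 against 459 to 602) were also lower in shDCAF1, where the fibroblast marker LUM had 0 counts in every sample, and the mitochondrial share was 1.96% to 1.98% against 4.10% to 4.48%. In each group replicates 2 and 3 were close (chi-square per degree of freedom 2.50 and 2.36), while pairs with replicate 1 gave 17.6 to 29.1. These differences move with the groups, and their part in the results on metalloproteinases was not tested. Which cells each group holds is uncertain from the labels and these markers, so that a difference in the cells themselves and an effect of the shRNA cannot be told apart in any fold given here. In bulk RNA, fewer cells of a type and less RNA per cell cannot be told apart either.

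Promoter sequence was available from RefSeq (GRCh38.p14) for 29 of the 46 genes. The stretches shown are the 150 bases directly before the gene, read 5′ to 3′ on the gene's strand, with capitals for the letters TGAGTCA, which the AP-1 factors bind, and TATAAA, the TATA box. They were chosen after the values were seen: MMP7 and MMP10 because they are neighbours without a count in shDCAF1, MMP14 and TIMP3 because they had the highest levels per length in shControl, and ADAMTS17 because it rose. They lie at chr11:102530751-102530900 on the minus strand (MMP7), chr11:102780629-102780778 on the minus strand (MMP10), chr14:22836410-22836559 on the plus strand (MMP14), chr22:32801555-32801704 on the plus strand (TIMP3) and chr15:100342006-100342155 on the minus strand (ADAMTS17).
MMP7: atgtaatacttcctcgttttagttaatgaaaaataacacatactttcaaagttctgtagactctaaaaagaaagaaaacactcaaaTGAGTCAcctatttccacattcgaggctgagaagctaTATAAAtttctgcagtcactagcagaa
MMP10: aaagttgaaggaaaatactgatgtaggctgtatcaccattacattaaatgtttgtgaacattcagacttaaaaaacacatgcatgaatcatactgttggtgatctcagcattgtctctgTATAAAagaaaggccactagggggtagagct
MMP14: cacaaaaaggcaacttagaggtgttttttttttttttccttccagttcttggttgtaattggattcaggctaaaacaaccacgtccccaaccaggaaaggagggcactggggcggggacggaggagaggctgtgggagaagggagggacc
TIMP3: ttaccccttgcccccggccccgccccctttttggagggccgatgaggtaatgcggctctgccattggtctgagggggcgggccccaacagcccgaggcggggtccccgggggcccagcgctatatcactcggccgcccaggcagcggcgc
ADAMTS17: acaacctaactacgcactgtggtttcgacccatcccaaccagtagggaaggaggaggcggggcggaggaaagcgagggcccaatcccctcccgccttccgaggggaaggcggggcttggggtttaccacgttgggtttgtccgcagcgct
In MMP7, TGAGTCA began 67 bases and TATAAA 30 bases before the RefSeq start, and in MMP10 TATAAA began 31 bases before it. The printed stretches hold 2 CpG pairs in MMP7, 0 in MMP10, 3 in MMP14, 13 in TIMP3 and 11 in ADAMTS17.

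Over windows of 300 bases around the RefSeq start, searched on both strands, TGAGTCA was found in 1 of the 29 genes (MMP7) and in 4.95% of all 35116 windows. TATAAA was found in 4 of 29 (MMP7, MMP10, ADAM21 and MMP21) and in 11.5% of all windows, and AGGAAG, which the PEA3 group of ETS factors binds, in 8 of 29 and 33.6%. No match of 1 motif overlapped a match of another in these 29 windows. The median GC content was 71% in the 29 windows and 58.7% in all of them, with a median of 28 and 14 CpG pairs. ADAM21, MMP10 and MMP7 had the lowest GC content of the 29 (40%, 36.3% and 35.7%). No promoter sequence was available for ADAM9, ADAM11, ADAM28, ADAM32, ADAMTS1, ADAMTS4, ADAMTS15, MMP1, MMP2, MMP3, MMP9, MMP13, MMP16, MMP17, MMP25, MMP28 and TIMP2. These genes were not searched for the motifs. The motif shares and GC values above therefore describe the 29 genes only, and whether they hold for the whole set was not tested.

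Most of the expressed metalloproteinase genes, and every TIMP, were lower in shDCAF1. Of the 46 genes, 39 had enough counts to be tested by edgeR's quasi-likelihood test, and genes whose fold change passed 2 with a p-value under 0.05 after Benjamini-Hochberg adjustment are referred to as called. Called down were 25 genes, where 22.0% of all 16756 genes tested were called down, and called up were 5, where 24.5% of all genes were called up. The other 9 were not called. Among genes that averaged 100 or more normalized counts in 1 of the groups, 18 of 24 were called down and 3 called up, against 20.0% and 21.8% of all genes at that level. The median log2 fold change was -4.55 over the 39 genes and 0.08 over all genes tested, and -1.30 over the 14 genes that had at least 10 counts in each sample. A gene near 0 in 1 group passed the filter on low counts through the other group alone and had to differ, so these counts and medians are a description. The adjusted p-values given below for such genes, in either direction, are likewise a description. In 34 of the 39 the normalized counts of the groups did not overlap, where 79.5% of all genes tested did not. A total of 11 of the 46 genes had 0 counts in every shDCAF1 sample and 0 genes had 0 counts in every shControl sample. Over the whole table, 1204 of 21494 genes had 0 counts in every shDCAF1 sample and 581 in every shControl sample. Of the genes tested, 3.63% were called down with 0 counts in every shDCAF1 sample, among them 9 of the 39. Of the 7 genes not tested, MMP3, MMP10 and MMP13 had 8 to 20 counts in shControl and at most 1 in shDCAF1. The other 4 of these, MMP21, MMP24, ADAM32 and ADAMTS2, had at most 13 counts in any sample.

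**Figure D1:**
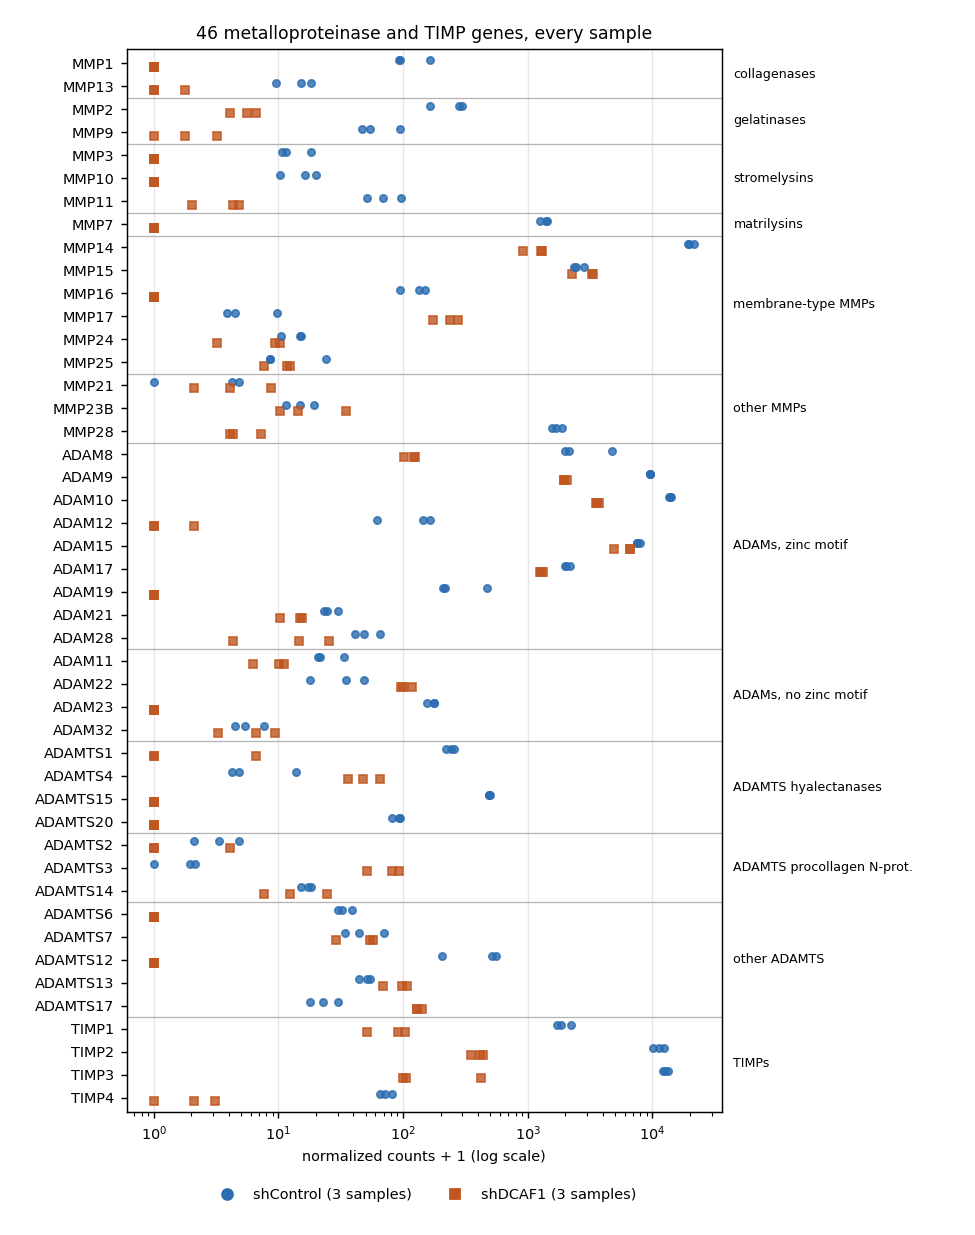
Normalized counts + 1 on a log axis for each of the 46 genes, grouped by role, with 3 shControl samples as circles and 3 shDCAF1 samples as squares. The squares of 11 genes lie at 0 counts in every shDCAF1 sample, and MMP17, ADAM22, ADAMTS3, ADAMTS4 and ADAMTS17 are the genes called up.

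The 4 TIMPs were all called down, where 22.0% of all genes tested were. These secreted inhibitors together act on the MMPs and on several ADAM and ADAMTS enzymes. Their summed normalized counts were 28183, 25714 and 24243 in the 3 shControl samples and 827, 639 and 612 in shDCAF1, a ratio of the means of 37.6. The corresponding ratios were 6.01 for the MMPs, 3.49 for the ADAMTS genes and 2.78 for the ADAMs. A sum is led by its most abundant genes: in shControl MMP14 made up most of the MMP sum, and ADAM9, ADAM10 and ADAM15 most of the ADAM sum.

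**Figure D2:**
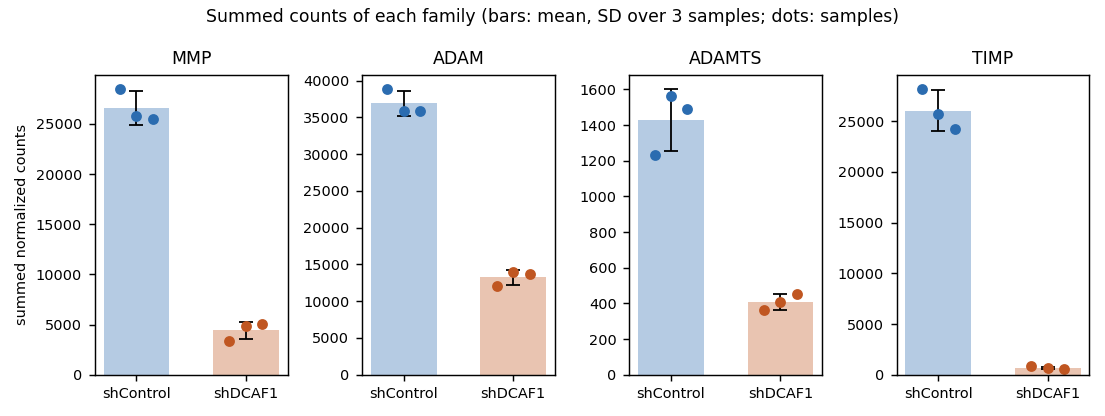
Summed normalized counts of the MMPs, ADAMs, ADAMTS genes and TIMPs, each panel with its own axis from 0; bars are means, error bars SD over 3 samples and dots the samples. The TIMP sum was 24243 to 28183 in shControl and 612 to 827 in shDCAF1.

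TIMP3 (ENSG00000100234.12, chr22:32801705-32863041), which binds to the matrix and inhibits ADAM17 and ADAMTS enzymes besides MMPs, had 11637, 11557 and 12920 counts in shControl and 379, 95 and 137 counts in shDCAF1. The groups lay far apart, and shDCAF1 1 stood above the other two shDCAF1 samples. Normalized counts were 12767 ± 644 (SD, n = 3) against 209 ± 186, 62.4-fold lower in shDCAF1 (log2 fold change -5.96, SE 0.509, edgeR adjusted p = 3.76e-06). Without shDCAF1 replicate 1 the difference was 125-fold. TIMP2 (ENSG00000035862.12, chr17:78852977-78925387), which inhibits MMPs and also helps MMP14 to activate MMP2, had 10693, 10341 and 10772 counts in shControl and 316, 419 and 544 in shDCAF1. It was 28.0-fold lower, with a log2 fold change of -4.81 (SE 0.123, edgeR adjusted p = 1.91e-09). TIMP1 (ENSG00000102265.12, chrX:47582408-47586789), an inhibitor of most secreted MMPs, had 1915, 1698 and 1804 counts against 45, 99 and 118. This was a 23.4-fold decrease (log2 fold change -4.55, SE 0.221, edgeR adjusted p = 8.15e-08). TIMP4, the least abundant of the 4, had 70, 59 and 75 counts in shControl and 1, 2 and 0 in shDCAF1. Its summed counts per depth were 75.8 times higher in shControl (95% exact counting interval 25.6 to 371, edgeR adjusted p = 3.57e-06). Leaving out shDCAF1 replicate 2 or 3 moved the fitted log2 fold change from -6.061 to -6.958 and -5.373. No TIMP had overlapping groups, and in 79.5% of all genes tested the groups did not overlap either. Such intervals, and the floor of 3 counts per library used for genes at 0, cover counting error only.

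TIMP1, TIMP3 and TIMP4 lie within the synapsin genes SYN1, SYN3 and SYN2 on the opposite strand. SYN1 had 53, 50 and 37 counts in shControl and 1, 0 and 1 in shDCAF1, and SYN3 had 4, 12 and 8 against 10, 4 and 0. The methods name a strand-specific kit and the labels a SMARTER kit, so it is unclear whether reads of opposite strands were told apart.

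Of the 6 membrane-type MMPs, which are held at the cell surface, 2 were called down, 1 was called up, 2 were not called and MMP24 was not tested. Over all genes tested, 22.0% were called down and 24.5% up. MMP14 (ENSG00000157227.14, chr14:22836560-22849041), the membrane collagenase that also activates MMP2, had 18818, 18052 and 20361 counts in shControl and 826, 1227 and 1694 in shDCAF1. It had the highest count of the 17 MMPs in every shControl sample. Normalized counts were 20246 ± 1365 (SD, n = 3) against 1165 ± 211, a 17.4-fold decrease (log2 fold change -4.12, SE 0.145, edgeR adjusted p = 1.11e-08). MMP16, another activator of MMP2, had 81, 123 and 158 counts in shControl and 0 in each shDCAF1 sample, at least 43.0-fold lower (edgeR adjusted p = 3.83e-06).

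MMP17 (ENSG00000198598.7, chr12:131828393-131851783), a membrane-type MMP held by a lipid anchor, went the other way. It had 3, 8 and 3 counts in shControl and 156, 229 and 357 counts in shDCAF1. Normalized counts rose from 5.01 ± 3.21 to 229 ± 50.4 (SD, n = 3), a 45.3-fold increase (log2 fold change 5.50, SE 0.356, edgeR adjusted p = 5.57e-07). Without shControl replicate 2, which had the highest count of its group, the increase was 70.2-fold. MMP15 (ENSG00000102996.5, chr16:58025754-58046901), a relative of MMP14 with a membrane-spanning segment, had 2456, 2241 and 2461 counts in shControl and 2037, 3152 and 4396 in shDCAF1. Its groups overlapped, with shDCAF1 1 below all shControl samples after scaling, and the log2 fold change was 0.23 (SE 0.148, edgeR adjusted p = 0.184). MMP25, a leukocyte MMP, had 7 to 20 counts in shControl and 6 to 14 in shDCAF1 and was not called. The membrane-type MMPs therefore held the most abundant MMP that fell, the MMP that rose and 1 abundant MMP that was not called.

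The secreted MMPs were led by MMP28 and MMP7. MMP7 (matrilysin, ENSG00000137673.9, chr11:102520508-102530750), a small MMP of epithelial cells that lacks the hemopexin domain, had 1083, 1290 and 1508 counts in shControl and 0 in each of the 3 shDCAF1 samples. Against the floor it was at least 466-fold lower (edgeR adjusted p = 1.39e-08), the largest such bound of the 46 genes. MMP28 (epilysin, ENSG00000271447.6, chr17:35756249-35795707), an MMP of skin and other epithelia, had 1624, 1437 and 1788 counts against 3, 6 and 4. The decrease was 404-fold (log2 fold change -8.66, SE 0.202, edgeR adjusted p = 1.26e-09). MMP28 counts in shDCAF1 were thus close to the floor of 3 counts.

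Both gelatinases, which cut denatured collagen and basement membrane collagen, were called down at lower counts, where 22.0% of all genes tested were called down. MMP2 had 140, 257 and 311 counts in shControl and 5, 3 and 6 in shDCAF1, with shControl 1 the lowest of its group. It was 54.1-fold lower (log2 fold change -5.76, SE 0.361, edgeR adjusted p = 4.43e-07). MMP9 had 80, 49 and 48 counts against 2, 0 and 1, and its summed counts per depth were 65.8 times higher in shControl (95% exact counting interval 22.1 to 322, edgeR adjusted p = 1.56e-05). Without shDCAF1 replicate 1 the fitted log2 fold change of MMP9 moved from -5.885 to -6.824. The interstitial collagenase MMP1 had 140, 85 and 98 counts in shControl and 0 in each shDCAF1 sample, at least 39.6-fold lower (edgeR adjusted p = 9.69e-06). Among the stromelysins, enzymes of broad matrix specificity, MMP11 was the 1 gene with enough counts to be tested, with 82, 63 and 53 counts against 3, 1 and 5. Its ratio of summed counts was 24.5 (95% exact counting interval 12.7 to 54.4, edgeR adjusted p = 1.07e-05). MMP23B had 11 to 17 counts in shControl and 9 to 44 in shDCAF1 and was not called.

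MMP7, MMP10, MMP1, MMP3 and MMP13 lie together within 435 kb of chromosome 11 (chr11:102520508-102955732), and together they had 1 count in the 3 shDCAF1 samples, in MMP13. Their protein-coding neighbours within 1000 kb were read out after the values of the cluster were seen. Of 10 such genes in the table, 9 were called down and 0 up, where 22.0% and 24.5% of all genes tested were. All 7 on the side of MMP7 were among the 9. TRPC6, CFAP300 and PDGFD had 0 counts in every shDCAF1 sample and passed the filter on low counts through shControl alone. TMEM123, 50.1 kb from the cluster, had 104419, 120780 and 138169 counts in shControl and 7224, 6549 and 8263 in shDCAF1 (log2 fold change -4.18, SE 0.117, edgeR adjusted p = 3.10e-09). YAP1, the transcriptional co-activator of the Hippo pathway, had 70218, 70820 and 80304 counts against 5698, 5846 and 8086 (log2 fold change -3.65). The inhibitors of apoptosis BIRC2 and BIRC3 had log2 fold changes of -4.53 and -6.85. On the other side DCUN1D5, 94.95 kb away, had 837, 796 and 930 counts against 1302, 1234 and 1707 (log2 fold change 0.57, under the fold threshold), while DYNC2H1 and PDGFD were called down. The lower counts in shDCAF1 thus included every gene analysed on the MMP7 side, up to TRPC6, and on the other side began again at DYNC2H1.

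**Figure D3:**
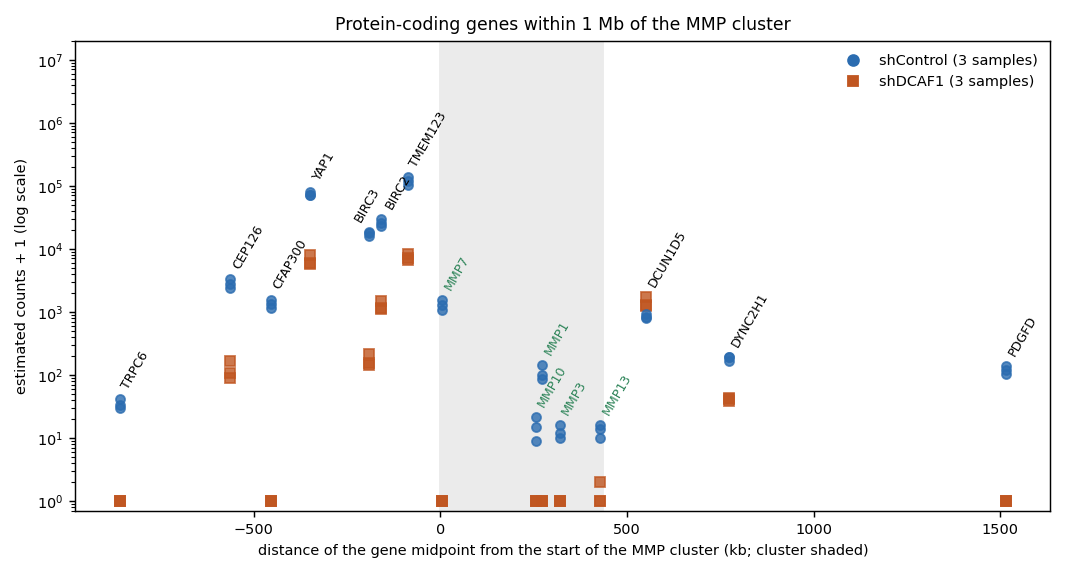
Estimated counts + 1 on a log axis for the 5 MMP genes of the cluster (shaded, green names) and its protein-coding neighbours, against the distance of each gene's midpoint from the start of the cluster in kb; circles are 3 shControl and squares 3 shDCAF1 samples. DCUN1D5 is the neighbour whose squares lie above its circles.

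Among the ADAMs that keep a zinc-binding motif, 6 of 9 were called down and 0 up, where 22.0% and 24.5% of all genes were. ADAM10 (ENSG00000137845.15, chr15:58588809-58749791), the main sheddase of NOTCH receptors and cadherins, had 11661, 12819 and 14934 counts in shControl and 3368, 3487 and 4644 in shDCAF1. Normalized counts fell 3.80-fold, from 13869.8 ± 326 to 3648 ± 102 (SD, n = 3), with a log2 fold change of -1.93 (SE 0.0751, edgeR adjusted p = 2.02e-08). ADAM9 (ENSG00000168615.13), a sheddase of the same cell surface group, had 8216, 8764 and 10066 counts against 1759, 1973 and 2568. It was 4.78-fold lower (log2 fold change -2.26, SE 0.0742, edgeR adjusted p = 7.81e-09). The spread of both genes within a group was small beside this difference. ADAM8, a sheddase known from leukocytes and invasive tumours, had 4074, 1975 and 2119 counts in shControl and 90, 119 and 159 in shDCAF1. It was 25.5-fold lower (log2 fold change -4.67, SE 0.349, edgeR adjusted p = 1.48e-06), with shControl 1 above the other 2 samples of its group.

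ADAM17 and ADAM15 were not called. ADAM17 (ENSG00000151694.14, chr2:9488486-9556732), which releases TNF and ligands of the EGF receptor, had 1902, 1871 and 2121 counts in shControl and 1120, 1238 and 1738 in shDCAF1. Its groups did not overlap after scaling, but at 1.61-fold (log2 fold change -0.69, SE 0.0801, edgeR adjusted p = 3.17e-05) the difference stayed under the fold threshold. ADAM15 (ENSG00000143537.14, chr1:155050566-155062775), an ADAM with an integrin-binding motif, had 6929, 6999 and 7937 counts against 4398, 6437 and 8574. Its log2 fold change was -0.35 (SE 0.118, edgeR adjusted p = 0.0215), with shDCAF1 1 the lowest sample. The exons of ADAM15 and ADAM17 overlap exons of DCST1 on the same strand and IAH1 on the opposite strand, so counts in the shared stretches are uncertain. The low ADAM21 was not called either, with 19 to 27 counts in shControl and 9 to 18 in shDCAF1.

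ADAM19 and ADAM12, the meltrins of developing muscle and heart, had at most 1 count in any shDCAF1 sample. ADAM19 had 403, 200 and 218 counts in shControl and 0 in each shDCAF1 sample, at least 102-fold lower (edgeR adjusted p = 1.23e-05). ADAM12 had 52, 132 and 171 counts against 1, 0 and 0, a ratio of summed counts of 396 (95% exact counting interval 70.6 to 15672, edgeR adjusted p = 6.60e-06). Leaving out shDCAF1 replicate 1, which held the 1 count, moved its fitted log2 fold change from -8.11 to -9.97, and leaving out shDCAF1 replicate 3 moved it to -7.51. Within shControl, replicate 1 was the highest sample for ADAM19 and the lowest for ADAM12. ADAM28, a lymphocyte ADAM, had 56, 37 and 50 counts against 3, 13 and 32 and was 3.47-fold lower (log2 fold change -1.80, SE 0.495, edgeR adjusted p = 0.00793), or 5.88-fold without shDCAF1 replicate 3.

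Of the ADAMs that lack the protease motif, ADAM11, ADAM22 and ADAM23 act as adhesion proteins and receptors of the nervous system. All 3 that were tested were called, 2 down and 1 up, where 22.0% and 24.5% of all genes were. ADAM23 had 153, 162 and 164 counts in shControl and 0 in every shDCAF1 sample, at least 58.1-fold lower (edgeR adjusted p = 7.06e-07). ADAM22, a receptor for the secreted protein LGI1 as ADAM23 is, rose from 41, 31 and 18 counts to 85, 96 and 154. Its increase was 3.23-fold (log2 fold change 1.69, SE 0.324, edgeR adjusted p = 0.000938), and the groups did not overlap. ADAM11 had 28, 19 and 21 counts against 9, 5 and 12 and was 2.92-fold lower (log2 fold change -1.55, SE 0.386, edgeR adjusted p = 0.00463). ADAM22 and ADAM23 thus changed in opposite directions.

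**Figure D4:**
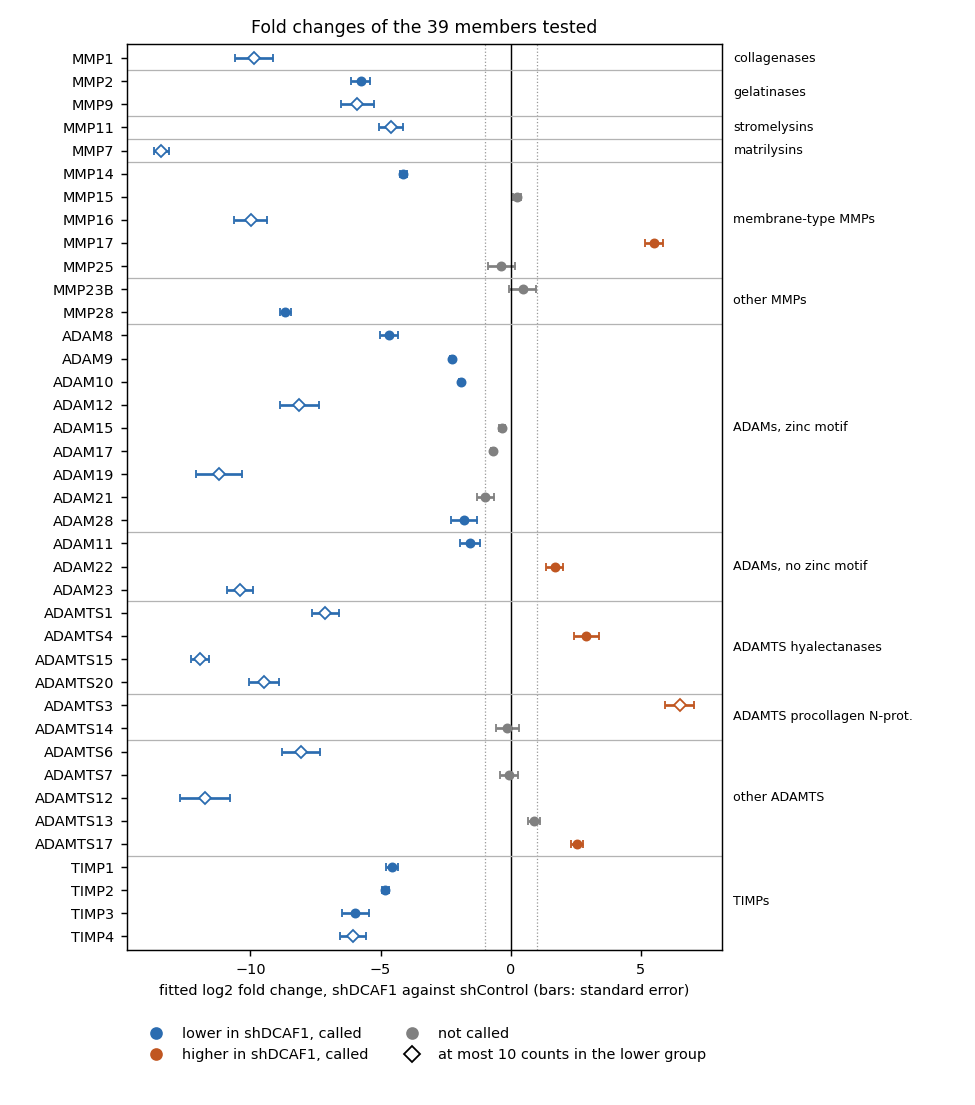
Fitted log2 fold changes of the 39 genes tested, shDCAF1 against shControl, with standard errors as bars and dotted lines at 2-fold. Blue marks are called lower and orange marks called higher in shDCAF1, grey marks are not called, and open diamonds mark genes with at most 10 counts in the lower group, whose fitted value depends on the prior count.

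Of the 11 ADAMTS genes tested, 5 were called down, 3 up and 3 not, where 22.0% of all genes were called down and 24.5% up. The hyalectanases cut large proteoglycans such as versican and aggrecan, and 3 of the 4 were called down. ADAMTS15 had 422, 451 and 528 counts in shControl and 0 in each shDCAF1 sample, at least 169-fold lower (edgeR adjusted p = 5.11e-08). ADAMTS1 had 210, 235 and 234 counts against 5, 0 and 0, a ratio of summed counts of 151 (95% exact counting interval 64.5 to 468, edgeR adjusted p = 1.31e-06). All 5 counts lay in shDCAF1 1: without it the fitted log2 fold change moved from -7.13 to -10.94, and without shDCAF1 replicate 3 to -6.41. ADAMTS20 had 69, 85 and 98 counts in shControl and 0 in shDCAF1, at least 30.3-fold lower (edgeR adjusted p = 3.20e-06). ADAMTS4, aggrecanase-1, rose from 11, 3 and 4 counts to 58, 34 and 61, which was 7.48-fold (log2 fold change 2.90, SE 0.489, edgeR adjusted p = 0.000403), or 13.3-fold without shControl replicate 1. VCAN, which encodes versican, had 657, 604 and 712 counts in shControl and 2, 2 and 0 in shDCAF1, a ratio of summed counts of 550 (95% exact counting interval 214 to 2019.7, edgeR adjusted p = 1.04e-08).

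Of the procollagen N-proteinases, which remove the amino-terminal propeptide of fibrillar collagens, ADAMTS3 was the 1 gene called. It had 1, 0 and 1 counts in shControl and 45, 78 and 120 in shDCAF1, a ratio of summed counts of 109 (95% exact counting interval 29.9 to 905, edgeR adjusted p = 4.02e-06). Its relatives were low in both groups, with 13 to 17 and 6 to 31 counts for ADAMTS14 and at most 4 for ADAMTS2. Among the other ADAMTS genes, ADAMTS12, a protease of cartilage matrix, had 176, 516 and 546 counts in shControl and 0 in shDCAF1, at least 146-fold lower (edgeR adjusted p = 1.41e-05). ADAMTS6 had 25, 29 and 40 counts against 0, at least 11.2-fold lower (edgeR adjusted p = 2.69e-05). ADAMTS17 (ENSG00000140470.15, chr15:99971437-100342005), which has been linked to fibrillin in connective tissue, rose from 25, 20 and 18 counts to 126, 123 and 167. Normalized counts were 22.6 ± 6.0 against 132 ± 7.37 (SD, n = 3), a 5.88-fold increase (log2 fold change 2.55, SE 0.238, edgeR adjusted p = 6.89e-06). ADAMTS13, which cuts von Willebrand factor, had 46 counts in each shControl sample and 61, 93 and 139 in shDCAF1, and its log2 fold change of 0.89 (SE 0.236, edgeR adjusted p = 0.00629) stayed under the fold threshold. ADAMTS7 had 35 to 60 counts in shControl and 25 to 74 in shDCAF1 and was not called.

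Levels of different genes were compared as normalized counts per kb of exon. Length was the union of all annotated exons: 15979 bases for ADAM10 and 17704 for ADAM9, but 4623 for MMP14 and 4597 for TIMP3. Which transcripts the cells made was not tested, so the levels and ranks below depend on this choice of length. Before division by length, ADAM10 had a mean of 13869.8 normalized counts in shControl and TIMP3 had 12767. In shControl, MMP14 had the highest mean level at 4379.5 per kb (range 4176 to 4718), followed by TIMP3 at 2777 and TIMP2 at 1817, and the ranges of these 3 genes did not overlap. TIMP1 (1183 to 1535) and ADAM15 (1143 to 1220) overlapped in range, and ADAM10 followed at 868. In shDCAF1 the order was another. ADAM15 was highest at a mean level of 920 per kb (746 to 1016), then MMP15 at 703 (538 to 796), with overlapping ranges. MMP14 at 252 (199 to 281) and ADAM10 at 228 (223 to 235) came next and overlapped too, and ADAM9 was at 113. The levels of TIMP2, MMP17, TIMP1 and TIMP3 in shDCAF1 were 64.7, 57.1, 56.1 and 45.5 per kb, so that MMP17 stood at rank 8 of the 46 genes where it had stood at rank 41 in shControl. The ranges of these 4 genes over the shDCAF1 samples overlapped. Their mean levels were below that of ADAM17, which was 80.8 per kb in shDCAF1 (78.3 to 83.5), although TIMP3 reached 92.1 per kb in shDCAF1 1.

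**Figure D5:**
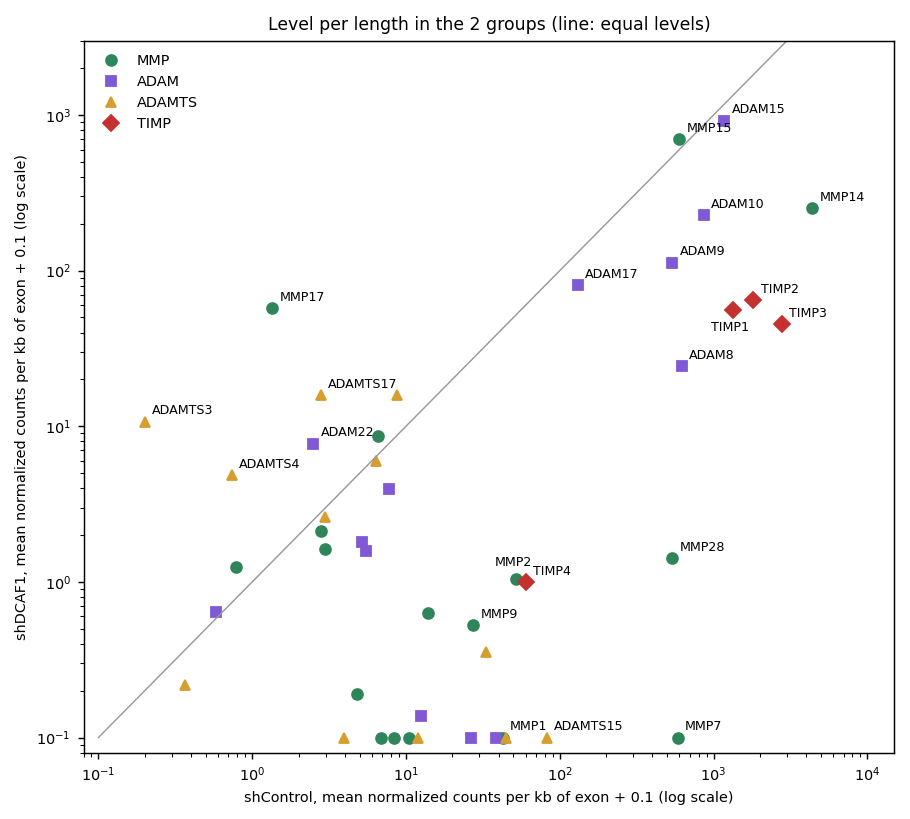
Mean normalized counts per kb of exon + 0.1 in shControl (x axis) and shDCAF1 (y axis), both on log axes, for the 46 genes by family; the line marks equal levels. ADAM15 and MMP15 lie near the line, the TIMPs and MMP14 far below it, and MMP17, ADAMTS3, ADAMTS4, ADAMTS17 and ADAM22 above it.

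Genes around these enzymes were read from 5 lists. Of 15 genes that activate or escort them, such as proprotein convertases, iRhoms and TspanC8 tetraspanins, 3 were called up, 6 down and 6 not called, beside 24.5% up and 22.0% down of all genes (median log2 fold change -0.39, against 0.08 over all genes). PCSK5, a convertase, had 703, 516 and 604 counts in shControl and 2, 0 and 4 in shDCAF1, a ratio of summed counts of 339 (95% exact counting interval 155 to 924). Without shDCAF1 replicate 3 its fitted log2 fold change moved from -8.33 to -9.07. The convertase PCSK7 rose 5.34-fold, from 467, 377 and 544 counts to 2082, 2670 and 3563, and TSPAN10, a tetraspanin that escorts ADAM10, rose 10.6-fold, from 29, 49 and 45 counts to 290, 490 and 709. RHBDF2, an iRhom that escorts ADAM17, had 2356, 2175 and 2392 counts against 484, 600 and 791, a 4.16-fold decrease. The other iRhom of the list, RHBDF1, had 935, 1017 and 1132 counts against 867, 1327 and 1659. It was not called (log2 fold change 0.15, edgeR adjusted p = 0.304). The 3 called up also include PCSK6, at 2.24-fold.

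The list of other inhibitors and of proteins related to ADAMTS enzymes without a protease domain had 11 of its 13 genes tested, of which 9 were called down and 2 up (A2M and SPOCK2), with a median log2 fold change of -2.75. Over all genes tested, 22.0% were called down and 24.5% up, with a median of 0.08. RECK, a membrane-anchored MMP inhibitor, had 354, 288 and 359 counts in shControl and 47, 43 and 50 in shDCAF1, and was 7.90-fold lower (log2 fold change -2.98, SE 0.184, edgeR adjusted p = 4.02e-07). TFPI2, a secreted inhibitor of serine proteases and MMPs, had 691, 471 and 598 counts against 0, 1 and 2, a ratio of summed counts of 654 (95% exact counting interval 223 to 3174). Its fitted log2 fold change moved from -9.19 to -9.869 without shDCAF1 replicate 3. LRP1, a receptor that clears several of these enzymes and TIMPs, was 14.1-fold lower and ADAMTSL4 423-fold lower. Lower TIMPs were thus accompanied by lower counts of some other inhibitors, RECK and TFPI2 among them, but not of all. A2M rose from 1, 0 and 0 counts to 34, 38 and 28, and SPOCK2 from 16, 19 and 38 to 80, 115 and 170.

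Of 12 other zinc proteases, 11 were tested, with 6 called down, 1 up (ANPEP, with at most 26 counts) and 4 not called, and the median log2 fold change was -2.63. The shares over all genes tested were 22.0% down and 24.5% up, with a median of 0.08. MME, the cell surface peptidase neprilysin, had 2946, 3426 and 4019 counts in shControl and 90, 156 and 229 in shDCAF1, and was 24.7-fold lower (log2 fold change -4.63, SE 0.179, edgeR adjusted p = 1.90e-08). BMP1, the procollagen C-proteinase, was 6.20-fold lower, and its relative TLL2 had 176, 105 and 150 counts against 2, 0 and 2. Of 36 substrates, 34 were tested, with 25 called down, 2 up and 7 not called, beside 22.0% down and 24.5% up of all genes. Their median log2 fold change was -4.88, against 0.08 over all genes. NRG1, CDH2 and TNFRSF1B, with 0 counts in every shDCAF1 sample, entered this median through shControl alone. SPARC, a matrix glycoprotein that MMPs cleave, had 5584, 6526 and 7458 counts in shControl and 0, 0 and 1 in shDCAF1, a ratio of summed counts of 21810.0 (95% exact counting interval 3914 to 861493). NRG1, a growth factor shed by ADAMs, had 5124, 5340 and 5825 counts against 0 in every shDCAF1 sample, at least 1969.6-fold lower (edgeR adjusted p = 2.11e-09). The receptor kinase AXL had 11532, 13923 and 15916 counts against 2, 0 and 3. The cadherin CDH2 had 65, 235 and 275 counts against 0 in every shDCAF1 sample, at least 67.5-fold lower (edgeR adjusted p = 6.50e-05). Without shDCAF1 replicate 3, which held the 1 SPARC count, no count of SPARC remained in shDCAF1, and its fitted log2 fold change moved from -13.93 to -15.66. NOTCH3, a receptor that ADAM10 cleaves, and EGF were the 2 substrates called up. NOTCH3 had 1368, 1506 and 1557 counts in shControl and 26759, 45448 and 59232 in shDCAF1, a 26.1-fold increase (log2 fold change 4.70, SE 0.182, edgeR adjusted p = 1.94e-08). COL1A1, COL1A2 and VWF of this list also stand in the marker lists.

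Of 24 transcription factors known to act on MMP promoters, 23 were tested, with 11 called down, 2 up and 10 not called (median log2 fold change -0.71). Beside them, 22.0% of all genes tested were called down and 24.5% up, with a median of 0.08. The AP-1 genes went in both directions: FOSL1 had 3179, 3166 and 3471 counts in shControl and 35, 10 and 16 in shDCAF1, while FOSB had 144, 51 and 49 against 3967, 777 and 1069, and FOS was also called up. FOSL1 was 177-fold lower (log2 fold change -7.46, SE 0.297, edgeR adjusted p = 2.32e-08), or 300.2-fold without shDCAF1 replicate 1. FOSB was 22.9-fold higher (log2 fold change 4.52, SE 0.787, edgeR adjusted p = 0.000504), or 9.26-fold without shDCAF1 replicate 1, its highest sample. SNAI2, a repressor of epithelial genes, had 1879, 1392 and 1630 counts against 0 in every shDCAF1 sample, at least 597-fold lower (edgeR adjusted p = 8.50e-08). RUNX2, a bone regulator known to act on MMP13, was 22.7-fold lower, with 411, 358 and 375 counts against 14, 11 and 32.

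Replicate 1 of shControl differed most from the other two shControl samples in a few of these genes, in either direction. Its normalized counts relative to the mean of replicates 2 and 3 were 0.378 for ADAMTS12, 0.394 for ADAM12 and 0.565 for MMP2, but 2.27 for ADAM8, 2.20 for ADAM19, 1.87 for ADAM22 and 1.75 for MMP1. In shDCAF1, replicate 1 was 4.15 times the mean of the other two for TIMP3 and 0.520 times for TIMP1. With and without replicate 1 of either group, ADAM22 was called up and the others were called down. The samples of 1 group were therefore less alike for these genes than for ADAM9 or ADAM10, whose ratios were 0.962 to 1.05.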

How the data were processed

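By the study's methods, single-end RNA-seq reads were aligned to hg38 with GENCODE 29 gene models, using STAR 2.6.1d, and counted by gene. The authors deposited estimated counts for 6 samples, with neither normalization nor pooling. Of the values 59.4% were whole, and every gene had a sum of at least 10. The design had assumed whole counts, so the estimated counts were rounded. Depth was 18195949 to 26883948 per sample, and 3 counts corresponded to 2.30 to 3.48 normalized counts.

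Genes were tested with edgeR 4.0.16 in R 4.3.3 (quasi-likelihood test, upper quartile factors at 0.75, its filter at 10 counts, no block, all 6 samples), in place of the Gene Specific Algorithm of Partek Flow. Benjamini-Hochberg adjustment ran over 16756 genes. Each standard error is the log2 fold change over the root of its F statistic. Normalized counts are counts divided by upper quartile size factors. Where the lower group had 0 counts, the fold is a bound against 3 counts in every library of that group, and where it had 1 to 10, the ratio of summed counts has a 95% exact (Clopper-Pearson) interval. The alternatives were TMM factors, library size alone, DESeq2 1.42.0, limma-voom (limma 3.58.1), other filters on low counts, a replicate block, leaving out each sample and summing replicates 2 and 3. The tests were tested on simulated data with known changes.

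Genes of the set that averaged 100 or more normalized counts in 1 group are given in full, and others by count and range or as the 1 gene of their role that was called. From each list up to 4 called genes at that level with the largest change are named. The other genes named, among them MMP9, TIMP4, ADAM11, ADAM28, ADAMTS4, ADAMTS6, ADAMTS20, VCAN, FOS, A2M, ANPEP, the synapsins and the genes near the chromosome 11 cluster, were picked with their values in view. The set and the lists were chosen with earlier results of these data known. Exon lengths and overlaps came from GENCODE 44, where all 46 genes have the coordinates of the table. In GENCODE 44, exons of 18 of the 46 overlap exons of another gene, 3 of them on the same strand, and counts of these genes are uncertain.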

Additional observations from a re-analysis of the deposited data

How the results depend on the processing

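The 25 genes called down and the 5 called up were called in the same direction under every alternative except a filter that asks for at least 10 counts in each of the 6 samples. That filter removes genes that are near 0 in 1 group: it left 14 of the 46 genes and 13103 genes in all, and called 7 of the set down and 2 up. It called 4690 genes in all (2694 up and 1996 down), 2 of the other zinc proteases and 14 substrates. The 441 values of single genes under the alternatives kept their sign and their call by fold and adjusted p together. The adjusted p alone crossed 0.05 for ADAM15, from 0.0215 to 0.289 by library size and 0.0664 without shControl replicate 1, and for MMP15, from 0.184 to 0.0172 by library size and 0.00547 without shDCAF1 replicate 1. Other settings called 25 to 29 genes of the set down and 5 to 6 up. Over all genes the median log2 fold change was 0.08 with upper quartile factors, -0.01 with TMM factors, -0.04 with DESeq2 size factors and 0.29 when scaled by library size, and calls were up in 52.7%, 48.8%, 47.7% and 60.1%.

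Deviations from the group mean, taken between samples of the same number, correlated at -0.07, 0.02 and -0.06 over 16432 genes, so no pairing by number was seen in them. Whether samples of the same number shared a preparation was not tested and cannot be decided from these correlations. Replicate 1 stood apart in both groups. With the replicate block, 5 genes of the set were called up and 25 down, and 7686 genes in all in place of 7778. Leaving out 1 sample at a time gave 25 to 28 genes of the set called down and 5 to 6 called up, 7949 to 8142 genes in all, and a log2 fold change of DCAF1 of -0.82 to -0.46. The filter on low counts left 7 of the 46 genes untested: without it all 46 were tested, with 29 called down and 5 up.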

Other observations

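Of genes that share a name with the set but fall outside its rule, MMP24OS, a protein-coding gene antisense to MMP24, had 1749, 1471 and 1574 counts in shControl and 390, 501 and 661 in shDCAF1. It was 3.49-fold lower (log2 fold change -1.80, SE 0.135, edgeR adjusted p = 1.51e-06). MMP24 lies inside it, and had 12, 13 and 10 counts against 2, 9 and 11. MMP25-AS1, antisense to MMP25, had 180, 134 and 184 counts against 126, 171 and 176 and was not called (log2 fold change -0.22, edgeR adjusted p = 0.294). The pseudogene ADAM1B had 7, 3 and 10 counts against 0, 1 and 0. These genes were chosen after their values were seen.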
